A study of Homo sapiens with 12 samples.

Results

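The genes described here are 8 cathepsin genes (*CTSS*, *CTSB*, *CTSD*, *CTSL*, *CTSZ*, *CTSO*, *CTSH* and *CTSK*), the legumain gene *LGMN* and the thiol reductase gene *IFI30*. They were chosen by name from the deposited expression table and make up 10 of its 45416 genes. Their RNA was measured by RNA-seq in U251 cells, an established human glioblastoma line that the labels list as wild type. Cells were transfected with a control siRNA (siNC) or with 1 of 2 siRNAs against *PD-L1* (siPDL1-1 and siPDL1-2), and after 48 h were left unstimulated or stimulated with IFNγ at 100 U/ml for 24 h. This gave 12 libraries in 6 groups of 2: siNC, siPDL1-1 and siPDL1-2, each without and with IFNγ. All groups share the transfection, and each result comes from 1 cell line grown without immune cells. The methods speak of 2 independent experiments, but the labels do not tie the 2 libraries of a group to separate cultures. The p-values therefore measure only the spread between these libraries.

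Cathepsins are proteases of endosomes and lysosomes, most of them cysteine proteases of the papain family, with *CTSD* encoding an aspartic protease. In cells that present antigen on MHC class II molecules, these enzymes cut proteins into peptides, cathepsin S trims the invariant chain that blocks the class II groove, legumain cuts after asparagine, and the *IFI30* product (GILT) reduces disulfide bonds so that folded antigens open. IFNγ is known to switch on the class II route through the transactivator CIITA in cells that are not professional antigen-presenting cells, glioma cells included.

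The number of reads on genes ranged from 17101069 to 55657393 per library, and values are in CPM, the reads of a gene scaled to the normalized size of its library. *CD274*, the *PD-L1* gene, was 4.60 and 4.91 CPM in unstimulated siNC cells, 2.67 and 2.73 CPM with siPDL1-1, and 3.57 and 3.45 CPM with siPDL1-2. After IFNγ it was 71.2 and 76.0 CPM with siNC, 60.9 and 66.7 CPM with siPDL1-1, and 37.5 and 35.0 CPM with siPDL1-2. The targeted gene was thus reduced past both thresholds (FDR < 0.01 and fold change > 1.5, limma) with siPDL1-1 in unstimulated cells and with siPDL1-2 after IFNγ, and not with siPDL1-1 after IFNγ (log2 fold change -0.20, FDR = 0.0604) or with siPDL1-2 in unstimulated cells (-0.35, FDR = 0.00183). All 7 glioma markers examined averaged at least 1 CPM. *GFAP*, the astrocyte filament gene, was the only one of them called lower with IFNγ, which it was with each siRNA (log2 fold changes of -0.62, -0.68 and -1.33). *SOX2*, a neural stem cell factor, was called higher with siNC (0.66) and siPDL1-1 (0.60). The 12 myeloid markers, from a cell type rich in these proteases, summed to 0.800 to 2.06 CPM per library, 0 of them averaged 1 CPM, and 1 (*C1QB*) was at 0 in every library. The 8 lymphoid and endothelial markers summed to 2.01 to 5.67 CPM, 1 of them averaged at least 1 CPM, and 2 were at 0 in every library.

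The sequences before the start sites are shown for the most abundant of these genes per length, *CTSD*, and for *IFI30*, which gained the most RNA with IFNγ. Each is the 250 bases before the start in RefSeq (GRCh38.p14), 5′ to 3′ on the strand of the gene, at chr11:1763928-1764177 (minus strand) for *CTSD* and chr19:18173563-18173812 (plus strand) for *IFI30*. Capitals mark CACGTG, the core of the element shared by many lysosomal gene promoters, which reads the same on both strands.

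CTSD: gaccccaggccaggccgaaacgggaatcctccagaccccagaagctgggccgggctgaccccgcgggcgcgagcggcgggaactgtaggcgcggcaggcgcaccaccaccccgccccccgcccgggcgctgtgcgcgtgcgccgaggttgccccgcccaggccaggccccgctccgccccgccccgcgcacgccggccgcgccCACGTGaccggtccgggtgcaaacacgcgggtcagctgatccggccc

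IFI30: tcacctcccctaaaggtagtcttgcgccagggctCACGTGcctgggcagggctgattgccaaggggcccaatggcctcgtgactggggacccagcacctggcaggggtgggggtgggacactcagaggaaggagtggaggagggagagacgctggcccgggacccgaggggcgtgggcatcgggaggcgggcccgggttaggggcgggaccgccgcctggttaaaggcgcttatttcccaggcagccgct

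The match lies 47 to 42 bases before the start of *CTSD* and 216 to 211 bases before that of *IFI30*. The search covered 5 of the 10 genes (*CTSD*, *CTSL*, *CTSZ*, *CTSH* and *IFI30*), and among these CACGTG was found in the windows of *CTSD* and *IFI30* only. It is present in 6.345% of the 35116 windows of the table. The gamma-activated site TTCNNNGAA (6.567% of windows) and the interferon-regulatory factor core GAAANNGAA (6.88% of windows), each searched on both strands, had no match in the 5 windows, which says only that these letters are not in them. *CTSS*, *CTSO*, *CTSK* and *LGMN* had no entry in the RefSeq table. *CTSB* was not searched, as genes on chromosome 8 were left out by rule. On the deposited annotation (GRCh38, as are all positions of genes given here) both windows lie inside the interval given to the gene (*CTSD*, chr11:1752752-1764573; *IFI30*, chr19:18173162-18178117), since that annotation includes longer transcripts.

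The genes differed in level by more than 3 orders of magnitude, and *CTSD* and *CTSB* were the most abundant. To compare genes, CPM was divided by the length of the canonical transcript in kilobases. In unstimulated siNC cells, *CTSD*, the aspartic protease, was at 259 ± 2.65 CPM per kilobase, and *CTSB*, a cysteine protease that also removes dipeptides, was at 214 ± 1.23 (mean ± SD, n = 2 libraries). *CTSL*, a broad endopeptidase of the lysosome, followed at 50.4 ± 0.598, *LGMN* at 35.5 ± 0.494 and *IFI30* at 28.9 ± 1.14 CPM per kilobase. The aminopeptidase gene *CTSH* was at 11.3 ± 0.101, *CTSK*, best known as the collagenase of osteoclasts, at 4.99 ± 0.128, and *CTSO*, a cysteine protease with few known substrates, at 3.01 ± 0.251 CPM per kilobase. *CTSZ*, a carboxypeptidase, and *CTSS* were at 0.181 ± 0.113 and 0.179 ± 0.0629 CPM per kilobase, and these were the only neighbours in the order whose libraries overlapped. Without division by length, *CTSB* was above *CTSD* in 5 of the 6 groups, as it has the longer transcript (3733 against 2055 bases).

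After IFNγ, the order in siNC cells was *CTSD* (246 ± 23.6 CPM per kilobase), *CTSB* (213 ± 0.652), *IFI30* (201 ± 4.70), *CTSL* (53.8 ± 0.978), *LGMN* (44.3 ± 0.396), *CTSO* (21.2 ± 0.829), *CTSH* (10.4 ± 0.207), *CTSK* (6.05 ± 0.168), *CTSS* (5.13 ± 0.0241) and *CTSZ* (0.151 ± 0.0203), with no overlap between neighbours. *IFI30* moved from the fifth to the third place, and its share of the summed level of the 10 genes went from 4.75% to 25.1%. *CTSS* remained below *CTSK* on this scale even after stimulation, but was above it by CPM and when all annotated exons of a gene were taken as its length. *CTSK* lies beside *CTSS* on chromosome 1 and on the same strand (chr1:150794880-150809577 and chr1:150730188-150765792). In both siPDL1 groups *IFI30* came second after IFNγ and its libraries overlapped those of *CTSB*. *LGMN* was above *CTSL* there, and below it in siNC cells.

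**Figure D1:**
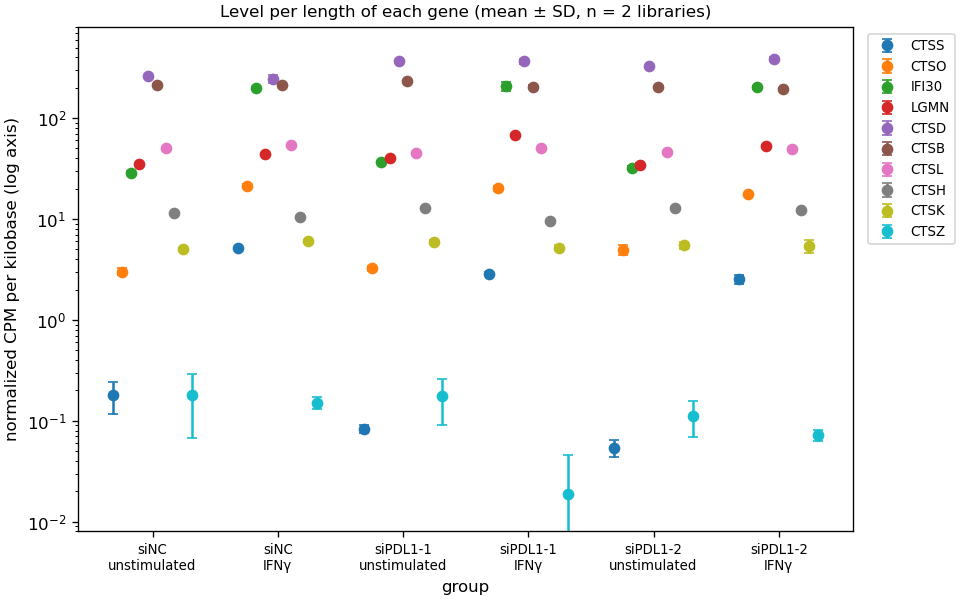
Level of the 10 genes in each of the 6 groups, in normalized CPM per kilobase of the canonical transcript on a log axis. Points are means and bars SDs of 2 libraries, set side by side within a group in the order of the key; the *CTSZ* bar in the siPDL1-1 group after IFNγ reaches below the axis because 1 library is at 0. *IFI30* joins *CTSD* and *CTSB* at the top after IFNγ, and *CTSS* leaves the level of *CTSZ* at the bottom.

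The first question was which of these genes respond to IFNγ. *CTSS*, *CTSO* and *IFI30* were higher after IFNγ with each siRNA, *LGMN* rose by a smaller amount, and the abundant *CTSD*, *CTSB* and *CTSL* stayed within 1.5-fold of their unstimulated level. In siNC cells 3 of 10 genes were called, all higher, where 8.12% of the 17982 genes tested were called in either direction and 6.67% were higher. The FDR alone was passed by 27.3% of all genes with siNC, 22.9% with siPDL1-1 and 17.1% with siPDL1-2. With siPDL1-1 4 of 10 were called, all higher (6.87% of all genes in either direction, 5.58% higher), and with siPDL1-2 also 4 of 10, all higher (5.27% and 3.62%). The median log2 fold change of the 10 genes was 0.17, 0.07 and 0.18 in the 3 siRNA groups, against 0.0012, -0.02 and -0.01 over all genes tested. All 10 genes also passed the filter on low reads in the unstimulated libraries alone, so none entered the test only through its level after IFNγ. *CTSZ* did not pass in the stimulated libraries alone, so its changes with IFNγ are those of a gene kept for its unstimulated reads.

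*CTSS* (ENSG00000163131) was almost silent before stimulation. In unstimulated cells it was 0.881 and 0.531 CPM with siNC (18 and 21 reads), 0.348 and 0.306 CPM with siPDL1-1 (12 and 13 reads), and 0.240 and 0.183 CPM with siPDL1-2 (10 and 6 reads). After IFNγ it was 20.3 and 20.1 CPM with siNC, 11.5 and 11.0 CPM with siPDL1-1, and 10.6 and 9.29 CPM with siPDL1-2. Every stimulated library was above every unstimulated one, and both siNC libraries were above the 4 siPDL1 libraries in each state. The ratio of the group means was 28.6 with siNC, 34.4 with siPDL1-1 and 47.1 with siPDL1-2. On the log2(CPM + 1) scale, which compresses changes of genes near 1 CPM, the log2 fold change was 3.64 (SE 0.119, FDR = 1.95e-12), 3.21 (FDR = 7.13e-12) and 3.17 (FDR = 1.28e-11, limma). With edgeR on the reads it was 4.91, 5.12 and 5.51, so the order of the siRNA groups depends on the scale. In bulk RNA, less RNA per cell and fewer cells with the RNA cannot be told apart.

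*IFI30* (ENSG00000216490), the reductase gene, was 27.8 and 29.4 CPM in unstimulated siNC cells, 36.2 and 37.1 CPM with siPDL1-1, and 30.9 and 32.7 CPM with siPDL1-2. After IFNγ it was 195 and 202 CPM with siNC, 219 and 191 CPM with siPDL1-1, and 205 and 195 CPM with siPDL1-2. The 3 stimulated groups overlapped one another and stood far above the unstimulated libraries. The ratio of means was 6.95, 5.59 and 6.28, and the log2 fold change 2.76 (SE 0.061, FDR = 1.45e-14) with siNC, 2.45 (FDR = 4.43e-14) with siPDL1-1 and 2.61 (FDR = 3.11e-14, limma) with siPDL1-2.

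*CTSO* (ENSG00000256043, chr4:155924118-155953910, minus strand) was 9.25 and 8.22 CPM in unstimulated siNC cells, 9.80 and 9.01 CPM with siPDL1-1, and 13.3 and 15.5 CPM with siPDL1-2. After IFNγ it was 59.7 and 63.1 CPM with siNC, 56.2 and 60.4 CPM with siPDL1-1, and 51.0 and 51.2 CPM with siPDL1-2. The siPDL1-2 libraries were the highest before stimulation and the lowest after it. The ratio of means was 7.03 with siNC, 6.20 with siPDL1-1 and 3.56 with siPDL1-2, and the log2 fold change 2.68 (SE 0.080, FDR = 6.65e-13), 2.51 (FDR = 1.07e-12) and 1.77 (FDR = 1.56e-10, limma).

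*LGMN* (ENSG00000100600, chr14:92703807-92748679, minus strand) encodes the asparaginyl endopeptidase, which also processes other cathepsins into their mature chains. It was 70.9 and 69.6 CPM in unstimulated siNC cells and 87.3 and 88.4 CPM after IFNγ, a difference of 0.32 on the log2 scale with an FDR of 4.19e-05 (limma), under the fold change threshold. With siPDL1-1 it was 79.8 and 78.4 CPM without and 136 and 133 CPM with IFNγ, and with siPDL1-2 66.8 and 70.2 CPM without and 103 and 106 CPM with IFNγ. Both changes were called, at 0.76 (SE 0.044, FDR = 2.58e-09) and 0.60 (FDR = 6.02e-08, limma), and the second was 0.57 and not called without the first unstimulated siPDL1-2 library. The stimulated libraries were above the unstimulated ones in every siRNA group.

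**Figure D2:**
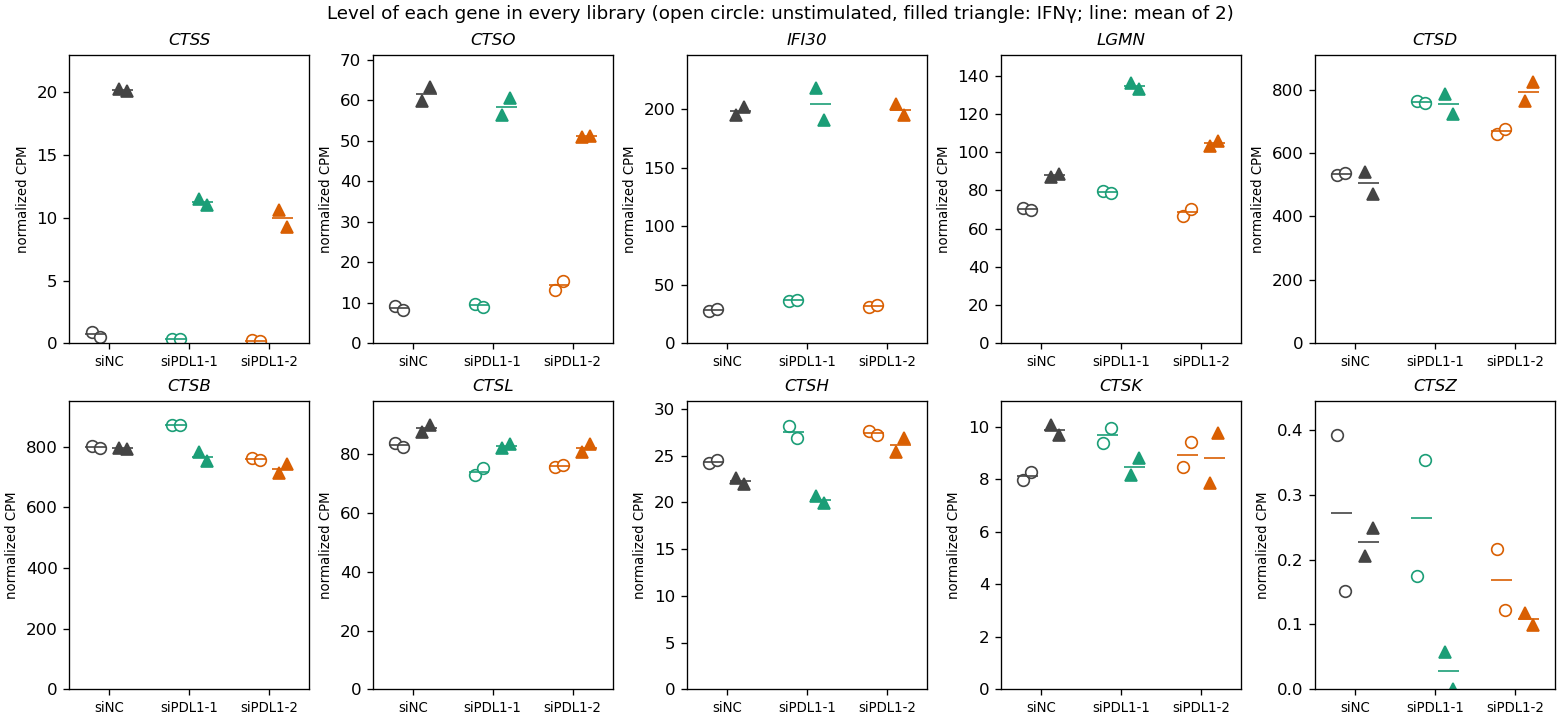
Normalized CPM of each of the 10 genes in every library, with a separate linear axis from 0 for each gene. Open circles are unstimulated and filled triangles IFNγ-stimulated libraries, and lines are means of 2 libraries. *CTSS*, *CTSO* and *IFI30* separate by stimulation in all 3 siRNA groups, while *CTSD* separates siNC from the siPDL1 groups.

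The other 6 genes were not called with IFNγ in any siRNA group. *CTSD* (ENSG00000117984, chr11:1752752-1764573, minus strand) went from 529 and 537 CPM to 540 and 471 CPM with siNC, and its log2 fold changes were -0.08, -0.01 and 0.25 in the 3 siRNA groups. The last of these, with siPDL1-2, had an FDR of 0.00635 (limma). *CTSB* (chr8:11842524-11869533, minus strand) was between 712 and 872 CPM in all 12 libraries, with log2 fold changes of -0.01, -0.18 and -0.06. For *CTSB* in siNC cells the 95% interval was -0.08 to 0.06, so a change of 1.5-fold lies outside it. *CTSL* (chr9:87724051-87731469, plus strand) was between 72.9 and 90.1 CPM, with log2 fold changes of 0.09, 0.16 and 0.11. *CTSH* (chr15:78921058-78949574, minus strand) had its lowest values, 20.7 and 19.9 CPM, with siPDL1-1 after IFNγ, against 28.2 and 26.9 CPM without it. That difference of -0.42 passed the FDR (7.12e-05, limma) and not the fold change threshold. *CTSK* was between 7.86 and 10.1 CPM in all libraries, although it lies beside *CTSS*, with log2 fold changes of 0.25, -0.17 and -0.02. *CTSZ* (chr20:58995185-59007254, minus strand) had at most 15 reads and 0.392 CPM in a library. Its log2 fold change in siNC cells was -0.04 (95% interval -0.30 to 0.21), which leaves out a rise of the size of that of *CTSS*. With siPDL1-1 it had 6 and 15 reads without and 2 and 0 reads with IFNγ. That change was -0.29 (FDR = 0.0763, limma) and not called, and with siPDL1-2 it was -0.08. The size of a fall from this level could not be resolved at this depth.

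**Figure D3:**
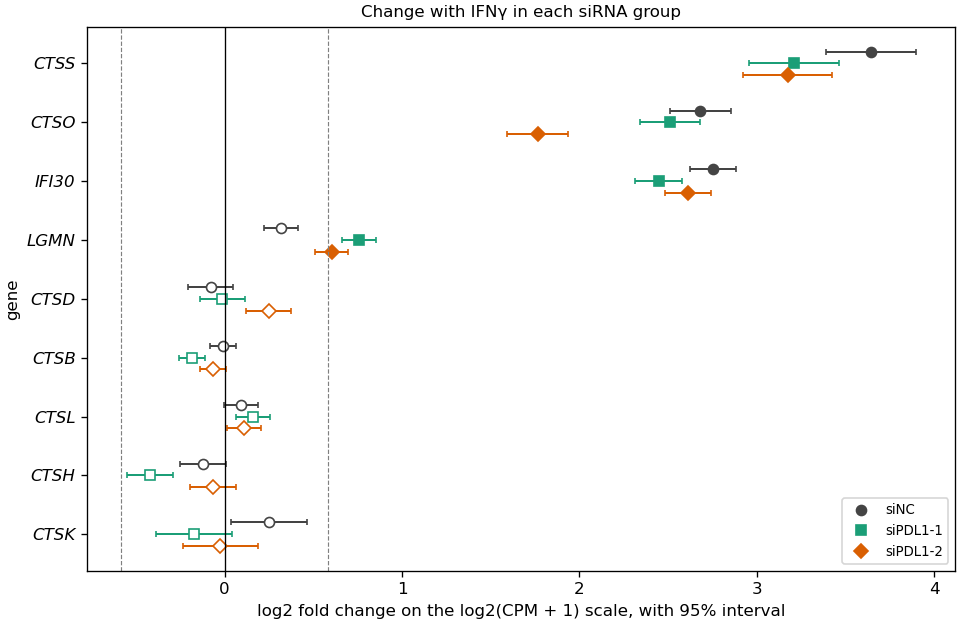
Log2 fold change with IFNγ on the log2(CPM + 1) scale for 9 genes (*CTSZ* left out for its low reads), with 95% intervals from limma, in siNC, siPDL1-1 and siPDL1-2 cells. Filled symbols passed both thresholds and dashed lines mark a 1.5-fold change. *CTSS*, *CTSO* and *IFI30* are filled in all 3 groups and *LGMN* in both siPDL1 groups.

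Reads of 2 of these genes are shared with annotated readthrough transcripts on the same strand. *IFI30* lies within *AC007192.1* (chr19:18153158-18178117), which was 14.6 and 9.69 CPM in unstimulated and 62.9 and 29.2 CPM in stimulated siNC cells. In the stimulated siPDL1-2 libraries *AC007192.1* was 1.58 and 83.3 CPM, a far wider gap than the 205 and 195 CPM of *IFI30* itself. When its reads were added to *IFI30*, the log2 fold change with IFNγ was 2.56, 2.43 and 2.66 in the 3 siRNA groups (highest FDR = 8.06e-07, limma). *CTSD* shares its interval with *AC068580.4* (chr11:1734821-1763954), which averaged 27.6 CPM against 669 CPM for *CTSD*, and adding its reads changed no call of *CTSD*. *CTSD* also overlaps *AC068580.3* on the opposite strand (0.682 CPM on average), and the authors counted reads on both strands.

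**Figure D4:**
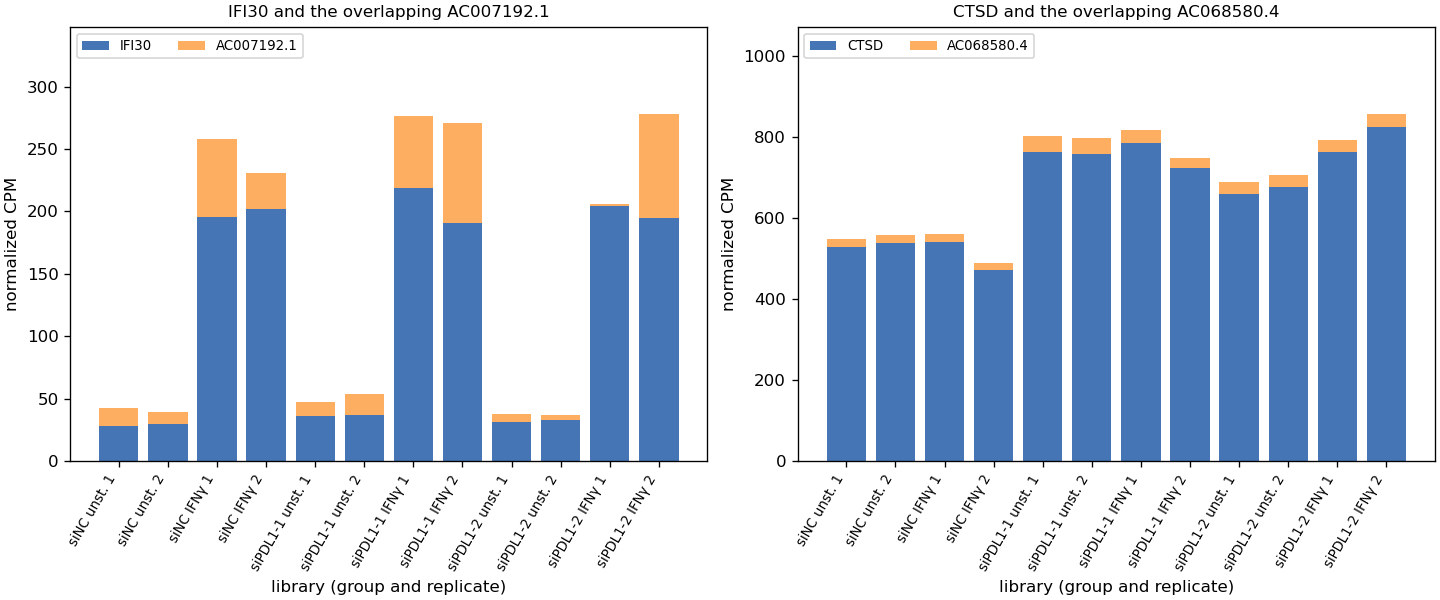
Normalized CPM per library of *IFI30* and *CTSD* (blue) with the overlapping readthrough transcripts *AC007192.1* and *AC068580.4* stacked on top (orange), 2 libraries per group. The orange part differs between libraries of 1 group for *IFI30*, from 1.58 to 83.3 CPM with siPDL1-2 after IFNγ, and is small throughout for *CTSD*.

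The second question was how these genes differed with each *PD-L1* siRNA after IFNγ. In that state *CD274* itself was not called lower with siPDL1-1 (log2 fold change -0.20). Both siRNAs were set against the same siNC libraries, so the comparisons are not independent. *CTSS* was lower with either siRNA, *LGMN* was called higher with siPDL1-1, and *CTSD* was called higher with siPDL1-2. Of the 9 genes tested (*CTSZ* was removed by the filter), 2 were called with siPDL1-1 (1 higher, 1 lower) and 2 with siPDL1-2 (1 higher, 1 lower). Over all 17148 genes, 5.52% were called with siPDL1-1 (3.76% higher, 1.76% lower) and 2.91% with siPDL1-2 (1.8% higher, 1.11% lower). The FDR alone was passed by 15.7% and 9.67% of all genes, and by 4.84% between the siRNAs.

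*CTSS* fell by 0.79 with siPDL1-1 (SE 0.094, FDR = 1.50e-04) and by 0.96 with siPDL1-2 (SE 0.094, FDR = 1.44e-04) on the log2 scale, from about 20.2 CPM on average to 11.3 and 9.95 CPM. The siPDL1 libraries did not overlap the siNC libraries, and the siRNAs differed from each other by 0.17 (95% interval -0.04 to 0.37). *CTSD* was 540 and 471 CPM with siNC, 786 and 723 CPM with siPDL1-1, and 763 and 824 CPM with siPDL1-2. All 4 siPDL1 libraries were above both control libraries. The log2 fold change was 0.65 with siPDL1-2 (SE 0.073, FDR = 3.40e-04), which was called, and 0.58 with siPDL1-1 (FDR = 2.63e-04, limma), which was just short of the fold change threshold. Without the second siNC library or the second siPDL1-2 library the siPDL1-2 call was lost (0.55 and 0.60). *CTSD* with siPDL1-1 was called without the first siNC library (0.68) or the second siPDL1-1 library (0.64), and with edgeR and DESeq2 (0.59 each).

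*LGMN* was 87.3 and 88.4 CPM with siNC, 136 and 133 CPM with siPDL1-1, and 103 and 106 CPM with siPDL1-2. The 3 groups did not overlap, with siPDL1-2 between the other two. The log2 fold change was 0.61 with siPDL1-1 (SE 0.057, FDR = 2.84e-05), which was called, and 0.25 with siPDL1-2 (FDR = 0.0109, limma), which was not. The direct difference between the siRNAs was 0.36 (SE 0.057, FDR = 0.00227) and did not reach the fold change threshold. *CTSO* with siPDL1-2 (-0.26, FDR = 0.0196) and *CTSH* with siPDL1-2 (0.22, FDR = 0.0603) were not called. For *IFI30* the log2 fold changes were 0.04 (95% interval -0.11 to 0.19) and 0.01 (-0.14 to 0.16), intervals that leave out a 1.5-fold change. *CTSB*, *CTSL* and *CTSK* lay between -0.20 and -0.05 with both siRNAs. Between siPDL1-1 and siPDL1-2 after IFNγ, limma, edgeR and DESeq2 each called 0 of 9 genes (2.11% of all genes called). Of the 9, 3 had an unadjusted p under 0.05. The share of all genes at an unadjusted p under 0.05 was not counted, so these counts and those below have no background.

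In unstimulated cells *CTSO* with siPDL1-2 was the only gene called, and *CTSD* was again higher with both siRNAs by less than 1.5-fold. With siPDL1-1, 0 of 10 genes were called by limma, edgeR and DESeq2 (4% of all genes called, 18.8% by the FDR alone). At an unadjusted p under 0.05, a looser cutoff, there were 8, and the share of all genes was not counted. The largest difference was that of *CTSD*, 763 and 758 CPM against 529 and 537 CPM, a log2 fold change of 0.51 (SE 0.058, FDR = 2.12e-05, limma) just short of the fold change threshold. *IFI30* was 0.35 higher (FDR = 5.23e-04) and *LGMN* 0.17 higher (FDR = 0.00931), but the FDR of *IFI30* was 0.121 with the readthrough reads added. With siPDL1-2, 1 of 10 was called, *CTSO*, which was higher (6.17% of all genes in either direction, 4.84% higher, 28.4% by the FDR alone). Its log2 fold change was 0.66 (SE 0.080, FDR = 1.60e-05, limma). That call was lost without the second siNC library (0.58) or the second siPDL1-2 library (0.55). *CTSD* was 660 and 676 CPM with siPDL1-2, 0.32 above siNC (FDR = 6.03e-04) and below the fold change threshold. *CTSS* had log2 fold changes of -0.36 (FDR = 0.0351) and -0.49 (FDR = 0.00417) with the 2 siRNAs, from fewer than 25 reads in each library. The *CTSS* change with siPDL1-2 was -1.62 (FDR = 0.00126) with edgeR and -1.66 with DESeq2, and was called by both. Between the 2 siRNAs limma called 0 of 10 genes (4.35% of all genes called, 24.1% by the FDR alone), while edgeR and DESeq2 each called 1, *CTSO*. At an unadjusted p under 0.05 there were 5, again without a share over all genes.

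**Figure D5:**
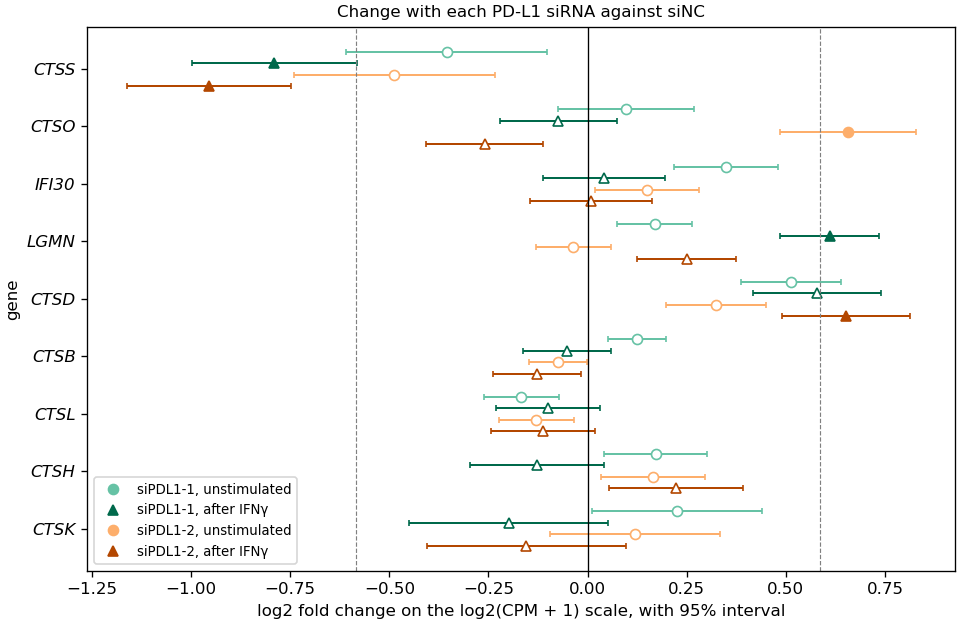
Log2 fold change of each *PD-L1* siRNA against siNC on the log2(CPM + 1) scale for 9 genes, with 95% intervals from limma, in unstimulated cells (circles) and after IFNγ (triangles). Filled symbols passed both thresholds and dashed lines mark a 1.5-fold change. *CTSS* lies to the left and *CTSD* to the right of 0 with both siRNAs in both states, and *CTSO* is filled with siPDL1-2 in unstimulated cells only.

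Whether the effect of an siRNA differed between unstimulated and stimulated cells was tested with an interaction term over the 12 libraries. For siPDL1-1, limma, edgeR and DESeq2 called 0 of 10 genes (0.968% of all genes called, 1.63% by the FDR alone). At an unadjusted p under 0.05, a looser cutoff, there were 6, and the share of all genes was not counted. The largest positive term was that of *LGMN*, 0.44 (SE 0.062, FDR = 5.26e-04, limma), which did not reach the fold change threshold. For siPDL1-2, 1 of 10 was called, *CTSO*, with a term of -0.92 (SE 0.113, 95% interval -1.16 to -0.67, FDR = 7.91e-05, limma). Over all genes 7.62% were called for siPDL1-2 (5.78% lower), and 17.1% passed the FDR alone. The terms of *CTSS* were -0.43 (FDR = 0.220) and -0.47 (FDR = 0.0476) for the 2 siRNAs on the log2(CPM + 1) scale. With edgeR they were 0.20 and 0.59, so the direction for *CTSS* follows the scale.

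Other genes of the same routes were taken from lists. Of 8 further cathepsin genes 5 could be tested. In every comparison limma, edgeR and DESeq2 called 0 of 5, where 0.968% to 8.12% of all genes were called. At an unadjusted p under 0.05 there were 1 to 3 of the 5, without a share over all genes. *CTSC*, whose product activates granule serine proteases, came closest. It was 152 and 152 CPM in unstimulated and 221 and 229 CPM in stimulated siNC cells, a log2 fold change of 0.57 (FDR = 5.80e-08, limma). After IFNγ *CTSC* was 150 and 158 CPM with siPDL1-1 (-0.55, FDR = 5.98e-05) and 164 and 168 CPM with siPDL1-2 (-0.44, FDR = 6.12e-04), below the siNC libraries as *CTSS* was. *CTSA*, the protective protein of lysosomal neuraminidase, was 0.33 higher on the log2 scale with either siRNA after IFNγ, below the fold change threshold (FDR = 0.00163 and 0.00254). Of 9 cystatin genes, which encode inhibitors of cysteine cathepsins, 3 could be tested and 0 were called by any of the tools in any comparison, with 0 to 3 at an unadjusted p under 0.05. *CST3*, the secreted cystatin C, was the most abundant of these at 139 CPM on average.

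The summed level of a list of class II route genes was higher after IFNγ. Of its 12 genes 11 could be tested, and all 11 were higher with each siRNA, by a median of 3.75, 3.49 and 3.71 on the log2 scale. Over all genes 6.67%, 5.58% and 3.62% were called higher with siNC, siPDL1-1 and siPDL1-2. The list, all 12 genes included, summed to 6.95 and 7.24 CPM in the unstimulated siNC libraries and to 509 and 492 CPM in the stimulated ones. As the filter used all 12 libraries, genes of this list may have entered the test only through their stimulated level, which was not checked. The count of 11 may thus be set in part by the filter, while the sums use no filter. *CD74*, the invariant chain that cathepsin S cuts, went from 0.196 and 0.304 CPM to 253 and 237 CPM in siNC cells, and *CIITA* from 1.76 and 2.38 CPM to 108 and 103 CPM. After IFNγ *CD74* differed from siNC by -0.01 with siPDL1-1 (95% interval -0.14 to 0.12) and by -0.02 with siPDL1-2 (-0.15 to 0.11). *CIITA* differed by -0.51 (FDR = 4.05e-04) and by -0.21 (FDR = 0.0571, limma), neither called. Of the 11 genes, 1 was called with siPDL1-1 after IFNγ by limma and edgeR (*HLA-DOB*, 0.66 higher) and 0 by DESeq2. With siPDL1-2 all 3 tools called 0. Over all genes 5.52% and 2.91% were called with siPDL1-1 and siPDL1-2. At an unadjusted p under 0.05 there were 6 and 4 of the 11, and the share of all genes was not counted.

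Of 39 genes for other lysosomal enzymes and membrane proteins 38 were tested. With IFNγ 2 were higher in siNC cells (*LIPA*, the acid lipase, 0.78 and *SCARB2*, the receptor that carries glucocerebrosidase, 0.65) and 3 with siPDL1-1 (*SCARB2* 0.88, *LIPA* 0.68 and the acid phosphatase *ACP2* 0.59), near the 6.67% and 5.58% of all genes that were higher. The interval of *LIPA* (chr10:89213569-89414557, minus strand) contains *IFIT1*, *IFIT2* and *IFIT3* of the type I interferon response list on the opposite strand. Reads were counted on both strands, and the part of such reads in the *LIPA* values here and below was not tested. With IFNγ in siPDL1-2 cells limma, edgeR and DESeq2 called 0 (5.27% of all genes called). At an unadjusted p under 0.05 there were 13, and the share of all genes was not counted. After IFNγ, 3 were higher with siPDL1-1 than with siNC (*LIPA* 0.76, *GAA* 0.71 and *IDUA* 0.59), where 3.76% of all genes were higher, and edgeR and DESeq2 each called 5. With siPDL1-2 1 was higher (*ARSB* 0.60, 1.8% of all genes), by all 3 tools. The median log2 fold change of the list was 0.24 and 0.19 in these comparisons, against -0.01 over all genes in both, and *CTSD* at 0.58 and 0.65 was above these medians. In unstimulated cells the median was 0.22 with siPDL1-1 and 0.12 with siPDL1-2. With siPDL1-1 limma called 2 of 38, *LIPA* (0.85) and *GAA* (0.61), and edgeR called 1. With siPDL1-2, 2 of 38 were called, *LIPA* (0.83) and *LAMP2* (0.66). These counts are near the 4% and 6.17% of all genes called with siPDL1-1 and siPDL1-2. Among 8 tested genes for lysosomal sorting and transcription factors, *MITF* was lower with IFNγ in siPDL1-2 cells (-0.64) and with siPDL1-1 in unstimulated cells (-0.60). It was the only 1 of the 8 called in each, where 5.27% and 4% of all genes were called. After IFNγ limma called 0 of the 8 with either siRNA (5.52% and 2.91% of all genes called), and edgeR and DESeq2 each called 1 with siPDL1-1. In each comparison 6 had an unadjusted p under 0.05, and the share of all genes was not counted.

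In the same libraries many genes of a type I interferon response list were higher with siPDL1-1. In unstimulated cells 9 of 15 genes of the type I interferon response list were called higher than with siNC (median 0.68 on the log2 scale, 4% of all genes called in either direction). After IFNγ, 14 of 15 were higher with siPDL1-1 than with siNC, by a median of 3.36 on the log2 scale (3.76% of all genes higher). With siPDL1-2 limma called 0 of 15 (2.91% of all genes called), and edgeR and DESeq2 each called 1. Of the 15, 11 had an unadjusted p under 0.05, and the share of all genes was not counted. Of 7 genes of IFNγ signalling, *JAK2* (0.67) and *SOCS1* (1.67) were higher and *IRF1* (-0.63) lower with siPDL1-1 than with siNC after IFNγ. *JAK2*, a kinase of the IFNγ receptor, also had an interaction term of -0.93 (FDR = 4.29e-05, limma) with siPDL1-2. The term of *CTSO* was negative too, as were most of those called (5.78% of all genes lower, 7.62% in either direction). The part of these changes in the values of *CTSS*, *LGMN* and *CTSO* was not tested.

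The genes whose levels followed those of *CTSS*, *CTSO* and *IFI30* most closely were listed by Pearson's r on log2(CPM + 1) over the 12 libraries, among 14278 genes of at least 1 CPM on average. They were *SLFN11* (0.998), *AL357054.4* (0.996) and *PSMA5* (0.994) for *CTSS*, *VSNL1* (0.995), *SLC8A1* (0.994) and *B2M* (0.992) for *CTSO*, and *PLAAT4*, *WARS1* and *IL18BP* (0.997 or more each) for *IFI30*. The libraries fall into a stimulated and an unstimulated set, and any gene with a large IFNγ difference has a high r, so these values only describe the profiles.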

How the data were processed

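RNA-seq covered 12 libraries of U251 cells, 2 for each of the 6 groups that the labels name. The authors used CLC Genomics Workbench with Ensembl genes on GRCh38, counting reads from either strand, and normalized the result. The deposited signal values are these normalized CPM, 1 column per library. In every library 100% of values were whole multiples of 1 read (tolerance 0.05 of a read), so reads were recovered, and the authors' factors (0.959 to 1.036) equalled edgeR's TMM factors. Depth was 17101069 to 55657393 reads per library, and PCR duplicates were not separated.

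Values were compared as log2(CPM + 1), a pseudocount of 1, with limma 3.58.1 (trend, robust; R 4.3.3). Genes were kept with edgeR's filterByExpr (minimum count 10, total 15), and calls required FDR < 0.01 (Benjamini-Hochberg over all genes) and fold change > 1.5. All 12 libraries (6 groups, 17982 genes) were fitted for IFNγ, unstimulated cells and the interaction, and the 6 stimulated libraries (17148 genes) for each siRNA after IFNγ. Alternatives were edgeR 4.0.16 (quasi-likelihood), DESeq2 1.42.0, a pseudocount of 0.1, no filter, no fold change threshold, a replicate block, leaving out each library, all 12 libraries in 1 fit for the comparisons after IFNγ and, chosen after seeing the data, adding readthrough reads. The tests were checked on simulated data. Replicates were not copies of each other (mean chi-square 1.85 to 7.76 per gene).

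The 10 genes, the gene lists and the alternatives were chosen with earlier results of these data known. Lists were written from general knowledge. Named genes are the 10 members, *CD274*, at most 4 called genes of each list and comparison by size, and the 3 genes most alike in profile to each gene called with IFNγ in siNC cells. *CTSC*, *CTSA*, *CST3*, *C1QB*, *GFAP*, *SOX2* and the uncalled values of *CD74* and *CIITA* were added after their values were seen. Lengths are those of GENCODE's canonical transcripts. Python 3.11.15, numpy 2.4.6, pandas 2.3.3 and matplotlib 3.10.9 were used. The labels and the methods differ on how RNA was extracted and on the sequencer.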

Additional observations from a re-analysis of the deposited data

Results flagged for a closer look

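The effect of siPDL1-2 on *CTSO* differed between unstimulated and IFNγ-stimulated cells. The interaction term was -0.92 on the log2(CPM + 1) scale (SE 0.113, FDR = 7.91e-05, limma). *CTSO* was higher with siPDL1-2 than with siNC in unstimulated cells (13.3 and 15.5 CPM against 9.25 and 8.22 CPM) and lower after IFNγ (51.0 and 51.2 CPM against 59.7 and 63.1 CPM), although the second difference alone was not called (FDR = 0.0196). The term was between -1.02 and -0.81 when any 1 of the 8 libraries of the comparison was left out and between -0.97 and -0.92 with the other settings, and it passed both thresholds each time (highest FDR = 8.55e-04). For siPDL1-1 the term of *CTSO* was -0.17 (FDR = 0.524), and the difference between the terms of the siRNAs was not tested.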

How the results depend on the processing

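The numbers of the 10 genes called with IFNγ stayed within 1.5-fold under every alternative tried, and the IFNγ calls of *CTSS*, *CTSO* and *IFI30* held in each siRNA group. Without the fold change threshold, 1 gene in place of 0 was called between the siRNAs after IFNγ, 3 in place of 0 with siPDL1-1 and 3 in place of 1 with siPDL1-2 in unstimulated cells, 3 in place of 0 between the siRNAs there, and 1 in place of 0 and 3 in place of 1 for the interaction with siPDL1-1 and siPDL1-2. With a pseudocount of 0.1 these counts were 1 with siPDL1-1 (*CTSS*, -0.88), 2 with siPDL1-2 and 1 between the siRNAs in unstimulated cells, and edgeR and DESeq2 each gave 2 with siPDL1-2 and 1 between the siRNAs there. With 1 library left out, the count ranged from 1 to 2 with siPDL1-2 after IFNγ, from 0 to 1 with siPDL1-2 and from 0 to 1 between the siRNAs in unstimulated cells. A direction was read where the unadjusted p was under 0.05 in either fit. By that rule it changed for the interaction of *CTSS*, which was 0.20 and 0.59 with edgeR, 0.22 and 0.63 with DESeq2, and 0.0470 and 0.33 with a pseudocount of 0.1 for siPDL1-1 and siPDL1-2, none past the threshold, and for *IFI30* with siPDL1-2 in unstimulated cells, which was -0.13 with the readthrough reads added. A pseudocount of 1 compresses differences of *CTSS*, which had 6 to 21 reads in unstimulated libraries; the cause of the other changes was not tested.

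Over the log2 fold changes of the 10 genes, 498 of the values with a library left out kept their call, 5 calls were lost and 5 gained, and with the other settings 658 kept theirs, 26 were gained and 7 changed direction. Among those that kept their call, 23 and 8 had the other sign with no unadjusted p under 0.05 in either fit, such as the interaction of *IFI30* with siPDL1-2 (-0.14, and 0.10 with the readthrough reads added). No difference between replicate numbers was shared across all groups (2 of 15 group pairs had a correlation of deviations over 0.1, range -0.19 to 0.25). This does not show whether libraries of the same number were run together. With a replicate block as a paired analysis the counts with siPDL1-1 and siPDL1-2 after IFNγ were 2 and 2, and no call of the 10 genes changed. Over all genes, dropping the fold change threshold raised the calls from 1460 to 4901, 1236 to 4122 and 947 to 3080 for IFNγ with siNC, siPDL1-1 and siPDL1-2, from 946 to 2692, 499 to 1659 and 362 to 830 after IFNγ, from 720 to 3379, 1110 to 5107 and 783 to 4338 in unstimulated cells, and from 174 to 293 and 1370 to 3067 for the interaction. Leaving out the first or second stimulated siPDL1-2 library gave 172 and 143 calls in place of 499 against siNC and 224 and 213 in place of 362 against siPDL1-1, and without the second the interaction with siPDL1-2 gave 890. Ranks of level by CPM in place of CPM per kilobase differed in the order of *CTSD* and *CTSB* in 5 of 6 groups. The order of *CTSS* and *CTSK* differed in every stimulated group and that of *CTSS* and *CTSZ* in every unstimulated group. So did *CTSO* and *CTSK* in unstimulated siNC and siPDL1-2 cells, and *CTSL* and *LGMN* in unstimulated siPDL1-1 cells. *IFI30* and *CTSB* also changed order in both siPDL1 groups after IFNγ. At 0 to 15 reads per library, a fall of *CTSZ* could not be resolved.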
